A study of Mus musculus with 6 samples.

Results

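The Notch genes examined were 3 receptors (Notch1, Notch2, Notch3), 2 ligands (Jag1, Dll4), 4 transcriptional repressors of the HES/HEY family that the pathway switches on (Hes1, Hey1, Hey2, Heyl) and its feedback inhibitor Nrarp. They were chosen by name as the pathway's core members, and all 10 were found among the 21603 genes of each table by matching Ensembl identifiers to the GENCODE M21 annotation. RNA came from lungs of C57BL/6 mice at P8 (postnatal day 8). Each mouse carried PdgfrbCreERT2, a tamoxifen-inducible Cre recombinase under a Pdgfrb BAC promoter that is active in pericytes, together with the Ribotag allele, a Cre-dependent HA tag on the ribosomal protein RPL22. Both groups received tamoxifen in the first days of life. The 3 control samples were heterozygous (Yap1+/-;Wwtr1+/-) and the 3 iPCKO samples homozygous (Yap1-/-;Wwtr1-/-) for deletion of Yap1 and Wwtr1. These genes encode the Hippo pathway coregulators YAP1 and TAZ. By genotype, the comparison is of cells with 1 intact copy of each gene against cells with none. Loss of these copies in every captured cell was not tested. Ribosome-bound RNA was pulled down from whole lung with an anti-HA antibody, and it can hold RNA of any recombined cell type as well as carried-over RNA of other cells.

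Notch signalling works by contact between neighbouring cells. A ligand of the Jagged or Delta-like family on one cell binds a Notch receptor on the next, the receptor is cut by ADAM proteases and γ-secretase, and its intracellular part enters the nucleus, where it joins the DNA-binding protein RBPJ and activates genes of the HES and HEY families. In blood vessels, endothelial cells present JAG1 and DLL4, arterial endothelium uses NOTCH1 and NOTCH4, and NOTCH3 is the receptor typical of pericytes and vascular smooth muscle cells, where HEYL is a well known target.

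Expression is given as RPKM, a read density scaled to exon length and library depth, which allows genes to be set beside each other within a sample. Low values fell on whole multiples of 1 read, and these steps implied between 14300000 and 39600000 reads per library. Taking the union of annotated exons as gene length, roughly 287 reads (Dll4 in iPCKO 3) to 89406 reads (Notch3 in control 3) stood behind each value of the 10 genes. Differences were tested with limma on log2(RPKM + 0.1) over the 12034 genes that reached 1 RPKM in 3 or more of the 6 samples. A gene was called changed when its adjusted p-value was below 0.01 and its log2 fold change exceeded 0.5 in either direction. At these thresholds 6.79% of all tested genes were called, 4.11% as higher and 2.68% as lower in iPCKO samples. The mean RPKM of Yap1 was 12.4 ± 0.859 (SD, n = 3) for controls against 5.61 ± 0.314 for iPCKO samples, whereas Wwtr1 had 60.4 ± 9.48 and 62 ± 1.63 RPKM, a log2 fold change of 0.05 with a 95% interval from -0.22 to 0.31. Gene totals cannot separate the recombined exons from the remaining ones. In such pulldowns, fewer cells of a type and less RNA per cell cannot be told apart.

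In control pulldowns Notch3 was the most abundant of the 10 transcripts, with a mean of 313 RPKM, higher than 99.4% of tested genes. Sftpc, an epithelial marker named after its values were seen, averaged 363 RPKM in controls, so levels here need not be those of pericytes alone. Among the 10 genes, Heyl followed Notch3 at 142 RPKM, then Notch2 at 76 RPKM and Nrarp at 38.8 RPKM. Notch1 (30.5 RPKM) and Hes1 (28.5 RPKM) were not separated, since their ranges over the controls overlapped. Hey2 (11.7 RPKM) and Jag1 (10.3 RPKM) overlapped in the same way. The lowest levels were those of Hey1 (7.09 RPKM) and Dll4 (5.53 RPKM). The order was the same in iPCKO samples apart from Hey1, which at 10.5 RPKM stood above Jag1 at 9.44 RPKM without overlap. All 10 genes had more than 1 RPKM in each of the 6 samples, so none was tested because of its level in a single group.

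**Figure D1:**
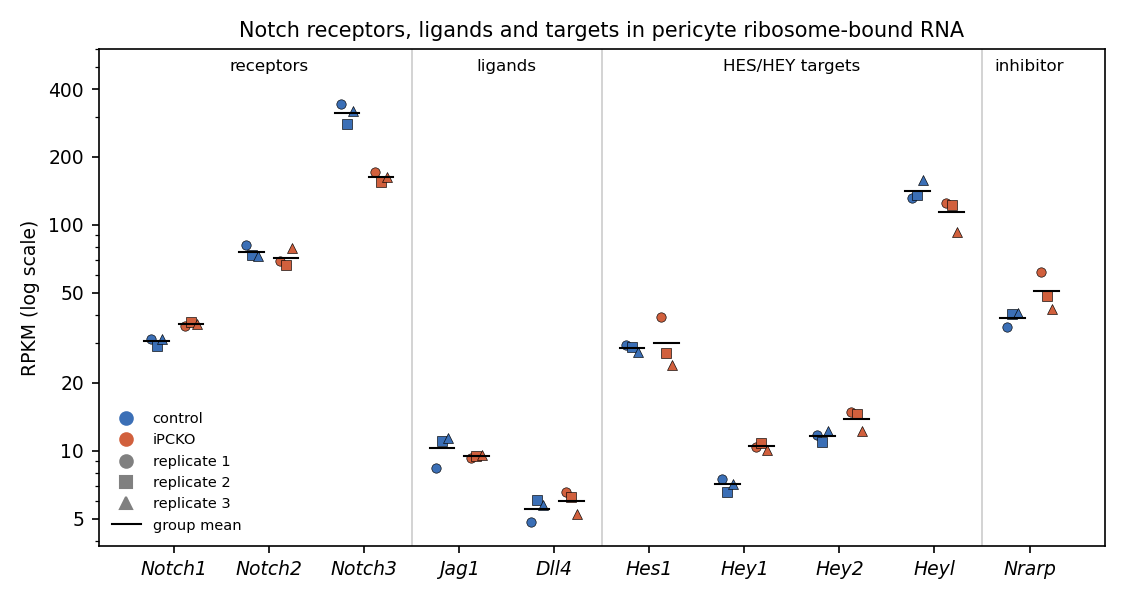
RPKM of the 10 Notch genes on a log axis, with a point for each of the 3 control (blue) and 3 iPCKO (orange) samples, shaped by replicate number, and a line at the group mean. Notch3 falls from 343, 279 and 319 RPKM to 172, 155 and 163 RPKM, while Hey1 lies higher in each iPCKO sample than in any control.

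Of the 10 genes, Notch3 fell and Hey1 rose past both thresholds, and the other 8 did not pass. The called share was therefore 2 of 10, against 6.79% of all tested genes, a count too small to set the group apart. The median log2 fold change of the 10 was 0.08, compared with 0.00 over all tested genes. The ranges of the groups were apart in 5 of the 10, higher in iPCKO for Notch1, Hey1 and Nrarp and lower for Notch3 and Heyl. Such separation was found in 35.5% of all tested genes. At an unadjusted p-value below 0.05, 6 of the 10 passed, compared with 29.7% of all tested genes.

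Notch3 (ENSMUSG00000038146, chromosome 17 of GRCm38, 32120820 to 32166852, minus strand) encodes the receptor of mural cells, the pericytes and smooth muscle cells around vessels. It had 343, 279 and 319 RPKM in controls 1 to 3 and 172, 155 and 163 RPKM in iPCKO 1 to 3. Every iPCKO value was thus far below every control value, and the mean dropped from 313 ± 32.4 to 163 ± 8.16 RPKM (SD, n = 3), 52.1% of control. On the log2 scale it fell by 0.94 with a standard error of 0.11 (adjusted p = 0.0011 in limma), and it stayed called, with log2 fold changes between -1.02 and -0.87, when each sample was left out in turn. The transcript of the gene that drives the Cre, Pdgfrb, was not called, at 1533 ± 151 RPKM for controls and 1337 ± 131 RPKM for mutants (log2 fold change -0.20, adjusted p = 0.46). Relative to Pdgfrb within each sample, Notch3 differed by -0.74 on the log2 scale, from -2.29 ± 0.01 to -3.03 ± 0.14. The exact permutation test gave p = 0.1 for this ratio, the smallest value that 3 samples against 3 allow. Of 10 pericyte markers, 3 were called higher and 2 lower, so such a ratio depends on the marker it is set against.

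No other receptor was called. Notch2 (chromosome 3, 98013527 to 98150361), a second widely expressed receptor, had 81.5, 73.3 and 73.2 RPKM in controls and 69.3, 66.5 and 78.7 RPKM in iPCKO samples. Its groups overlapped, and the log2 fold change of -0.09 had a 95% interval from -0.32 to 0.14 (adjusted p = 0.59) and ran from -0.16 without iPCKO 3 to -0.04 without control 1. Notch1 (chromosome 2, 26457903 to 26516663), the receptor best known from endothelium, had 31.2, 29.1 and 31.2 RPKM in controls against 35.6, 37 and 36.4 RPKM in iPCKO samples. All its iPCKO values were above the controls, but the log2 fold change was only 0.25 (standard error 0.08) and the adjusted p-value of 0.064 did not pass. Notch4 (chromosome 17, 34564268 to 34588503), the fourth receptor and one that is largely endothelial, had 7.97, 7.58 and 7.34 RPKM in controls and 10.4, 9.92 and 9.02 RPKM in mutants. All mutant values were the higher ones, but its log2 fold change of 0.35 (adjusted p = 0.033) was below the threshold.

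As a consequence of these values, the 4 receptors summed to 427 ± 37.6 RPKM in controls and to 281 ± 10.6 RPKM in iPCKO samples. Notch3 made up 73.2% ± 1.33 (SD, n = 3) of that sum in controls and 58.1% ± 1.55 in iPCKO samples. The share of Notch2 was 17.8% ± 0.947 against 25.4% ± 1.73, that of Notch1 7.15% ± 0.389 against 13% ± 0.722, and that of Notch4 1.79% ± 0.137 against 3.48% ± 0.297. For each of these shares no sample of one group reached into the range of the other. The two-sided exact permutation test gave p = 0.1 for each, the lowest possible, and 0.188 after Benjamini-Hochberg adjustment over the 15 shares and sums compared. Shares of a common sum are bound to move in opposite directions, so these are not separate results.

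**Figure D2:**
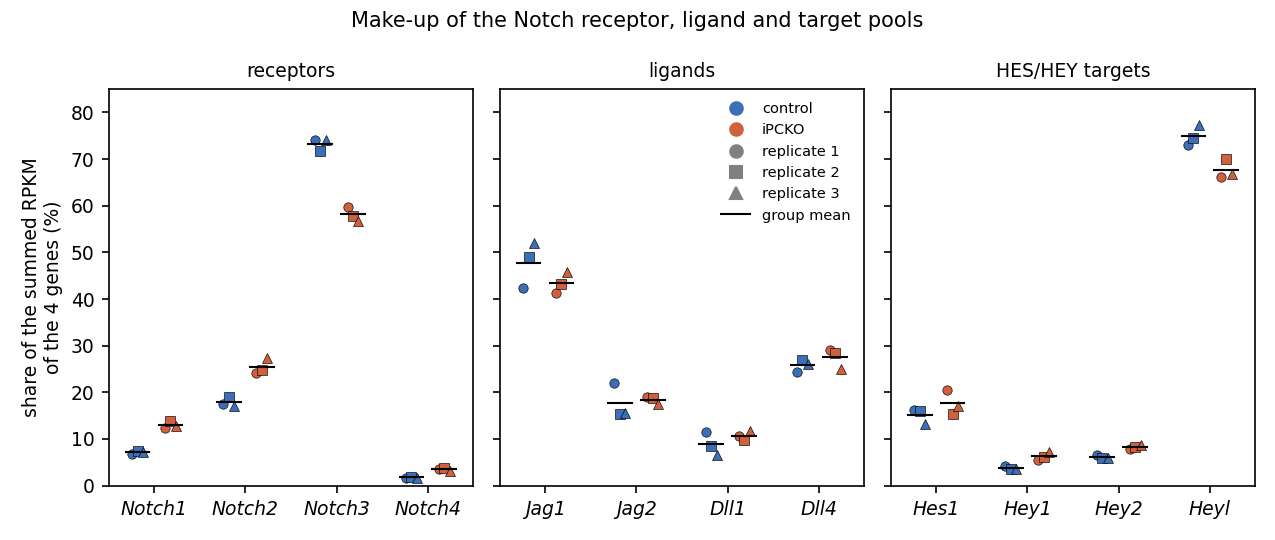
Share of each gene, in percent, in the summed RPKM of 4 Notch receptors (left), 4 canonical ligands (middle) and 4 HES/HEY targets (right), for the 3 control (blue) and 3 iPCKO (orange) samples with the group mean as a line. Notch3 drops from 73.2% to 58.1% of receptor RPKM, while the ligand shares overlap between the groups.

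Upstream sequences of Notch3, the receptor called lower, and of Notch1, the member with the most TEAD words, are shown because both transcription factor families of interest bind short DNA words. RBPJ binds around the core TGGGAA, and TEAD factors, the DNA-binding partners of YAP1 and TAZ, bind GGAATG. Both words were searched on either strand (TTCCCA and CATTCC are their reverse complements) in the 250 bases before each RefSeq transcription start (GRCm38.p6). Of 32851 such windows, 21.6% held an RBPJ core, 12.6% a TEAD word and 3.81% both. A window was found for 7 of the 10 genes and not for Hes1, Hey1 or Heyl. The Notch3 window, chr17:32166891-32167140 on the minus strand, lies outside annotated exons and holds neither word. The Notch1 window, chr2:26503823-26504072 on the minus strand, belongs to a RefSeq start inside the gene's GENCODE bounds with 2 bases in an annotated exon, and it holds the TEAD word CATTCC with first bases 233 and 216 bases upstream of that start, printed in capitals. The windows of Notch2, Jag1, Dll4 and Nrarp hold neither word. Outside the 10 genes, windows of Notch4 and of the pathway genes Neurl1b and Dlk1, described below, were also searched. That of Notch4 holds 1 TEAD word, 227 bases upstream, and those of Neurl1b and Dlk1 hold neither word. No motif match is evidence of binding, and an absent match says only that these letters are not in the window.
Notch3 upstream: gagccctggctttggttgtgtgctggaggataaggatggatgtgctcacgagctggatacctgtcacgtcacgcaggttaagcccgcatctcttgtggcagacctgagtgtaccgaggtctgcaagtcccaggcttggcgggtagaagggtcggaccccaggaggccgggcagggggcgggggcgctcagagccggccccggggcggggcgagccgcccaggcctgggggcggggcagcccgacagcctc
Notch1 upstream: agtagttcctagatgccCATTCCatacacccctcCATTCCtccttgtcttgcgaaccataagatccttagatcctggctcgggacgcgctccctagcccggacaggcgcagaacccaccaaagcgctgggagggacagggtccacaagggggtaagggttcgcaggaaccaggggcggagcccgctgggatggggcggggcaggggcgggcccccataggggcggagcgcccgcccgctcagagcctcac

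Neither ligand passed the thresholds. Jag1 (chromosome 2, 137081456 to 137116644), which encodes the Jagged ligand that vessel wall cells use to signal to each other, had 8.38, 11 and 11.4 RPKM in controls and 9.31, 9.46 and 9.56 RPKM in iPCKO samples. The iPCKO values lay within the range of the controls, and the 95% interval of the log2 fold change ran from -0.39 to 0.17 around -0.11 (adjusted p = 0.61). Its spread was wide in controls, with a coefficient of variation of 16.1%, compared with 1.3% in mutants, and control 1 was the low sample. Its log2 fold change was -0.25 without control 1 (adjusted p = 0.07), -0.05 without control 2 and -0.03 without control 3. Dll4 (chromosome 2, 119325784 to 119335962), the Delta-like ligand of arteries and sprouting capillaries, had 4.82, 6.06 and 5.72 RPKM in controls and 6.56, 6.22 and 5.23 RPKM in iPCKO samples. Here too the groups overlapped, with a log2 fold change of 0.11 and an interval from -0.17 to 0.40 (adjusted p = 0.59). That value ran from 0.02 without control 1 to 0.21 without iPCKO 3. The 4 canonical ligands Jag1, Jag2, Dll1 and Dll4 together reached 21.4 ± 1.41 RPKM in controls and 21.8 ± 0.843 RPKM in iPCKO samples (exact permutation test, p = 0.8), far below the receptors in either group.

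Of the 4 HES/HEY targets, Hey1 passed the thresholds and Hes1, Hey2 and Heyl did not. These genes encode basic helix-loop-helix repressors, through which Notch silences other genes. Hey1 (ENSMUSG00000040289, chromosome 3, 8663359 to 8667256, minus strand), a target prominent in endothelium and in arterial smooth muscle, had 7.53, 6.59 and 7.16 RPKM in controls and 10.4, 10.9 and 10.1 RPKM in iPCKO samples. Each mutant value exceeded each control value, and the mean rose from 7.09 ± 0.476 to 10.5 ± 0.41 RPKM (SD, n = 3), 147% of control. This amounts to 0.55 on the log2 scale with a standard error of 0.09 (adjusted p = 0.0042 in limma), close to the threshold of 0.5. It was called in 11 of 15 alternative fits. The call was lost without control 2, control 3, iPCKO 2 or iPCKO 3, with adjusted p-values up to 0.027 and log2 fold changes from 0.50 to 0.58.

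Heyl (ENSMUSG00000032744, chromosome 4, 123233556 to 123249875) had 132, 135 and 159 RPKM in controls and 126, 123 and 93.2 RPKM in iPCKO samples. The groups did not overlap, but iPCKO 1 and control 1 were close and iPCKO 3 was lowest by a wide margin. Its log2 fold change of -0.33 (95% interval -0.64 to -0.01, adjusted p = 0.16) did not pass, and without iPCKO 3 it was -0.19. Its decrease was also set against that of Notch3. The log2 ratio of Heyl to Notch3 within a sample was -1.14 ± 0.21 in controls and -0.53 ± 0.24 in iPCKO samples, a shift of 0.61 without overlap (exact permutation test, p = 0.1, the smallest possible). This shift restates the log2 fold changes of Heyl and Notch3 already given and is not a separate result. Relative to Pdgfrb, Heyl was -3.43 ± 0.20 in controls and -3.56 ± 0.10 in mutants, and the groups overlapped.

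Hey2 (chromosome 10, 30832359 to 30842801), the relative of Hey1 that is needed in arteries and heart, had 11.8, 10.9 and 12.3 RPKM in controls and 14.9, 14.5 and 12.3 RPKM in iPCKO samples. iPCKO 3 lay just below control 3, and the log2 fold change of 0.25 (interval 0.02 to 0.48) had an adjusted p-value of 0.14. Hes1 (chromosome 16, 30064384 to 30067796), which responds to Notch in many cell types, was the most variable of the 10 among mutants. It had 29.4, 28.9 and 27.4 RPKM in controls and 39, 27 and 23.9 RPKM in iPCKO samples. The mutants thus lay on both sides of the controls, with a coefficient of variation of 26.5% against 3.71%, and the log2 fold change of 0.04 had an interval from -0.33 to 0.41 (adjusted p = 0.91). Its sign turned to -0.17 without iPCKO 1.

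Heyl dominated the summed RPKM of the 4 repressors, with 74.9% ± 2.15 (SD, n = 3) in controls and 67.7% ± 2.08 in mutants. Hey1 held 3.76% ± 0.366 and 6.3% ± 0.87, and Hey2 6.17% ± 0.302 and 8.31% ± 0.485. These 3 shares did not overlap between groups (exact permutation test, p = 0.1, adjusted 0.188), while the share of Hes1 did. The log2 ratio of Hey1 to Heyl, which likewise restates the changes of both genes, was -4.30 ± 0.17 in controls and -3.42 ± 0.20 in iPCKO samples. The sum of the 4 repressors, 189 ± 14.3 RPKM in controls and 168 ± 26 RPKM in mutants, overlapped (exact permutation test, p = 0.4).

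The Hey2 upstream window is printed because it was the only one of the 7 to hold an RBPJ core. It spans chr10:30842784-30843033 on the minus strand, with 18 bases in an annotated exon. The core, TTCCCA, begins 207 bases before the start and overlaps a TEAD word, CATTCC, that begins 209 bases before it. Both are in capitals as 1 run.
Hey2 upstream: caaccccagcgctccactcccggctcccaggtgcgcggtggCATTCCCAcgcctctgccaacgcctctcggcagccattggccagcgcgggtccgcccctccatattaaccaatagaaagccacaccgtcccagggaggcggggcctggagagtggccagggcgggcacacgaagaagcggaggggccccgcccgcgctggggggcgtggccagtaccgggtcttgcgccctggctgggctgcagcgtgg

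Nrarp (chromosome 2, 25180758 to 25183339) encodes a small ankyrin-repeat protein that is induced by Notch and in turn limits the activity of the cleaved receptor. It had 35.3, 40.4 and 40.6 RPKM in controls and 61.7, 48.2 and 42.5 RPKM in iPCKO samples. The groups did not overlap, though the gap between control 3 and iPCKO 3 was small. Its log2 fold change of 0.38 (standard error 0.14, interval 0.06 to 0.69) did not pass (adjusted p = 0.11), and it was 0.23 without iPCKO 1. Among iPCKO samples 5 of the 10 genes, Nrarp, Hes1, Heyl, Hey2 and Dll4, were all highest in iPCKO 1 and lowest in iPCKO 3. This order of 3 samples was picked out after the values were seen, and no test was made. Its share over all tested genes was not counted, so it cannot be read as a trait of the Notch genes.

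Beyond the 10 members, 52 further genes of the pathway were listed, of which 42 passed the filter on low values. Dlk1 rose, Neurl1b fell and the other 40 did not pass both thresholds. The called share of 2 in 42 lies near the 6.79% of all tested genes, and the 42 had a median log2 fold change of 0.01. Of them, 19 did not overlap between groups, 7 higher and 12 lower in iPCKO samples, against 18.3% and 17.1% of all tested genes. The 10 genes that were too low to test (Dll3, Dlk2, Dner, Aph1c, Dtx1, Tle2, Hes2, Hes3, Hes5 and Hes7) reached at most 1.05 RPKM in any sample.

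Neurl1b (ENSMUSG00000034413, chromosome 17, 26414829 to 26446349) encodes a Neuralized E3 ubiquitin ligase that acts on Notch ligands in the cell that presents them. It had 31.2, 26.3 and 26.8 RPKM in controls and 8.95, 9.17 and 9.76 RPKM in iPCKO samples. The mutant values lay close together at 33.1% of the control mean, and the decrease on the log2 scale was -1.58 with a standard error of 0.09 (adjusted p = 3.4e-05 in limma). Dlk1 (ENSMUSG00000040856, chromosome 12, 109452823 to 109463336) encodes a non-canonical Delta-like membrane protein that lacks the domain with which canonical ligands activate Notch. It was at 4.61, 3.36 and 3.36 RPKM in controls and at 16.1, 18.1 and 12.7 RPKM in iPCKO samples. Its mean rose to 414% of control, or by 2.02 on the log2 scale with a standard error of 0.16 (adjusted p = 0.00016). Both calls were kept in all 15 alternative fits.

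At the other steps of the pathway Neurl1b was the one gene past both thresholds. Among the 5 glycosyltransferases that modify the receptors, none passed, and Poglut1, the most abundant, had 11 RPKM in controls and a log2 fold change of -0.11. Of 9 tested genes for receptor cleavage none passed, and Ncstn, the γ-secretase subunit with the highest level, averaged 35.7 ± 3.17 RPKM over controls and 36.2 ± 0.578 RPKM over mutants. Furin, a protease that cuts the receptors during their maturation and is named after its values were seen, had 22.6, 14.2 and 15.3 RPKM in controls and 24.8, 24.8 and 24.5 RPKM in mutants. Its mutant values were all above the controls, of which control 1 was close to them. Its log2 fold change of 0.53 missed the threshold on the adjusted p-value (0.058). It was called in 2 of 15 alternative fits, without control 1 (0.74, adjusted p = 0.0022) and with sample weights. Without control 2 it was 0.40 (adjusted p = 0.17) and without control 3 it was 0.46 (adjusted p = 0.19). Of 12 tested genes for ubiquitination and trafficking Neurl1b alone passed. Nedd4, which encodes a ubiquitin ligase, was the most abundant of them at 184 ± 5.98 and 163 ± 9.98 RPKM (log2 fold change -0.18, adjusted p = 0.26). None of the 11 tested nuclear partners passed, and 8 of them had a negative log2 fold change. Their median was -0.10, against 0.00 over all tested genes, for which the share of negative values was not counted. Snw1, a coactivator in the RBPJ complex and the most abundant of the nuclear partners, had a log2 fold change of 0.01. Rbpj itself averaged 17.1 ± 0.989 RPKM over controls and 16 ± 0.18 RPKM over mutants (log2 fold change -0.10, adjusted p = 0.47). Hes6, the other tested HES gene, had 6.17 and 7.56 RPKM and a log2 fold change of 0.29 (adjusted p = 0.18).

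A further 5 pathway genes, named here after their values were seen, had adjusted p-values between the threshold of 0.01 and 0.05. They were Notch4, described above, Aph1b, a γ-secretase subunit (log2 fold change -0.44, adjusted p = 0.022), the Groucho corepressors Tle1 (-0.34, adjusted p = 0.04) and Tle4 (-0.44, adjusted p = 0.025), and Neurl1a. The last, a paralogue of Neurl1b, averaged 0.668 ± 0.145 RPKM over controls and 1.29 ± 0.0965 RPKM over mutants. The log2 fold change of 0.87 (adjusted p = 0.025) is a difference that the filter itself selects for, since Neurl1a passed the filter through the iPCKO samples alone. Aph1b was called in 2 of 15 alternative fits, Tle4 in 1 of 15 and Neurl1a in 2 of 14. At an adjusted p-value below 0.05, 15.2% of all tested genes passed, compared with 7 of the 42.

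**Figure D3:**
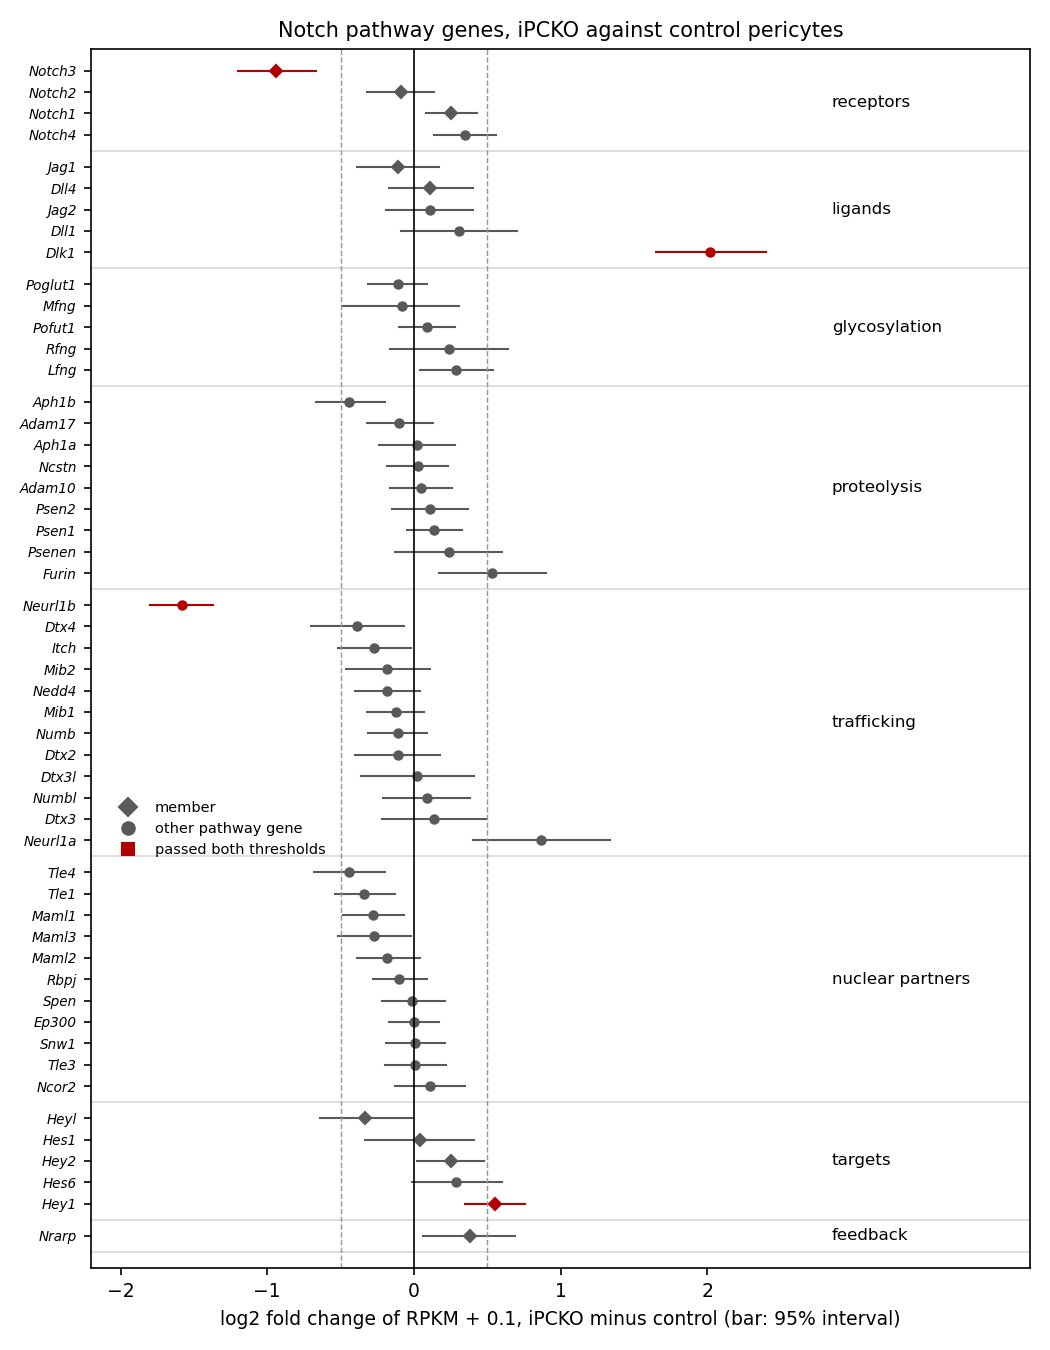
Log2 fold change of RPKM + 0.1, iPCKO minus control, with its 95% interval for the 10 members (diamonds) and the 42 other tested pathway genes (circles), grouped by step of the pathway. Red marks the genes past both thresholds, Notch3, Neurl1b, Hey1 and Dlk1, and dashed lines mark log2 fold changes of 0.5 in either direction.

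The pattern over the 6 samples was also used to find the genes most like each called member, by Pearson's r of log2(RPKM + 0.1). With 6 samples in 2 separate groups, a high r mainly reflects the group difference, and 377 tested genes had r above 0.95 with Notch3 and 283 with Hey1. The closest to Notch3 were Sertad2 (r = 0.998, log2 fold change -0.84), Parva (r = 0.997, -0.35) and Nkd2 (r = 0.997, -0.88). Those closest to Hey1 were Gjc1, a connexin gene (42.8 and 85.1 RPKM on average in controls and mutants), Fam189a2 (14.4 and 23.1 RPKM) and Agrn, which encodes agrin (41.3 and 54.5 RPKM).

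Markers of other cell types were examined beside these results, because Notch1, Notch4, Dll4 and Hey1 are also expressed by endothelium. The 10 endothelial markers summed to 207 to 221 RPKM in controls and 206 to 219 RPKM in iPCKO samples, and none was at 0 in any sample. Pecam1 averaged 16.9 ± 2.25 RPKM over controls and 17.2 ± 0.0657 RPKM over mutants, and Cdh5, the endothelial cadherin, 32.9 ± 1.46 and 34.2 ± 0.679 RPKM. Kdr and Vwf were called higher, with log2 fold changes of 0.77 and 0.72, and no endothelial marker was called lower. Of the 10 log2 fold changes 6 were negative. Egfl7 (-0.28, adjusted p = 0.047), Emcn (-0.45, adjusted p = 0.087) and Erg (-0.12, adjusted p = 0.4), named after their values were seen, lay below the controls in each mutant. Relative to the mean log2 level of the endothelial markers, Hey1 differed by 0.51 between groups, Notch4 by 0.31 and Notch1 by 0.21. Each was without overlap (exact permutation test, p = 0.1), while Dll4 and Hey2 overlapped. The level of the list itself differed by 0.04 as a mean (exact permutation test, p = 0.7) and by 0.20 as a median (same test, p = 0.1). The size of these relative differences therefore depends on the summary used, and ratios to the median were not computed. Of 6 arterial markers, summing to 107 to 126 RPKM in controls and 141 to 173 RPKM in mutants, Unc5b alone was called, as higher. It averaged 44.5 RPKM over controls and 73.8 RPKM over mutants, a large part of the difference in the sum. Of the other markers, 2 are named after their values were seen. Bmx (log2 fold change 1.21) passed the filter on low values through the iPCKO samples alone. Sox17 lay below the controls in each mutant (log2 fold change -0.48, adjusted p = 0.024). Efnb2, the arterial ephrin, had 14.8 and 15 RPKM. The part of endothelial RNA in the Hey1, Notch1 and Notch4 differences was not tested further.

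The pericyte markers were the highest of the lists, at 4354 to 5165 RPKM in controls and 4248 to 4935 RPKM in iPCKO samples, but 5 of the 10 were called, 3 higher and 2 lower. Cspg4, the pericyte proteoglycan NG2, rose with a log2 fold change of 1.06. Kcnj8 (1.03) and Abcc9 (1.15), named after their values were seen, were the others called higher. The markers called lower, also named after their values were seen, were Rgs5 and Mcam. Rgs5, a regulator of G protein signalling, was at -1.15 (43.9% of control). Mcam, the adhesion molecule CD146, was at -1.04 (48.4% of control). Among smooth muscle markers 2 were called higher and 2 lower, with Acta2 at 683 ± 82.3 and 706 ± 70.6 RPKM, and of 10 fibroblast markers 1 was called, as lower. Epithelial markers summed to 569 to 656 RPKM in controls and 830 to 889 RPKM in mutants, with 1 of 9 tested called, as higher. Leukocyte RNA moved with the groups. The 8 leukocyte markers summed to 52.5 to 74.1 RPKM in controls and 132 to 222 RPKM in mutants, with 6 called higher, and the 6 neutrophil markers summed to 71.9 to 100 RPKM and 405 to 4353 RPKM, with 5 called higher. Neutrophil markers were lowest in iPCKO 1 and highest in iPCKO 3. What these cells contribute to the Notch genes was not tested.

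**Figure D4:**
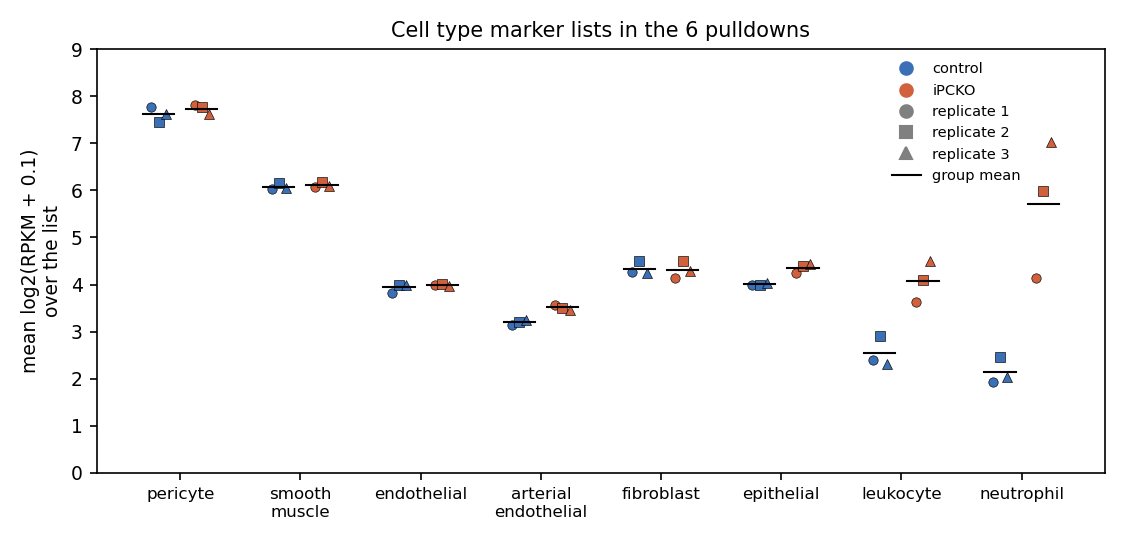
Mean log2(RPKM + 0.1) over each of 8 lists of cell type markers, with a point for each control (blue) and iPCKO (orange) sample and a line at the group mean. Endothelial, smooth muscle, fibroblast and pericyte lists overlap between groups, whereas arterial endothelial (mean 3.20 against 3.51), epithelial (4.01 against 4.36), leukocyte (2.54 against 4.06) and neutrophil lists (2.14 against 5.72) lie higher in each iPCKO sample than in any control.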

How the data were processed

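RPKM values per Ensembl gene were deposited, in a table for each sample. The authors had aligned paired-end reads of stranded total RNA libraries to mm10 (GRCm38) using TopHat, assigned them to genes using HTSeq 0.6.1 and divided by depth and exon length. The length used, and whether counting used strand, are not given in the sources used here. Notch1, Notch2, Notch3, Dll4 and Nrarp overlap annotated non-coding transcripts, whose reads may enter these values. Gene positions are 1-based, from GENCODE M21.

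RPKM were tested without further scaling as log2(RPKM + 0.1) with limma 3.58.1 in R 4.3.3 (eBayes with intensity trend, Benjamini-Hochberg adjustment over all 12034 tested genes). Fold changes on this scale understate those of low genes. Thresholds are those of the study, which applied them to read counts with DESeq2, so its calls need not match those given here. Single values were compared with two-sided exact permutation tests (scipy 1.17.1). The labels do not say how the mice were sampled within litters, so p-values measure the spread between these 3 samples per group.

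No pairing of samples by replicate number was assumed. Deviations from the group means correlated at 0.24, 0.09 and 0.02 over the same-numbered pairs, and at -0.30 to 0.27 over the others. With 3 samples per group these values cannot settle whether the numbers pair the samples. The limma fit was also run on simulated data with known changes, whose means and spreads came from the real fit. The permutation tests were not run on simulated data. Depth was read from genes with 1 annotated transcript, where 74.6% to 77% of low values were whole multiples of 1 read to within 0.02.

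The members and the lists of pathway genes and markers were chosen with earlier results of these data known. Genes were named by rule, namely all members, every called pathway gene, the most abundant gene of each step, Notch4, the deleted genes, the 3 genes closest in pattern to each called member, and some mural and endothelial markers. Others are marked as chosen after their values were seen, and so were the ratios to Pdgfrb, to the endothelial markers and between targets and receptors. Kdr, Vwf and Unc5b were named because few markers of their lists were called.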

Additional observations from a re-analysis of the deposited data

How the results depend on the processing

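Across 15 alternative fits, Notch3 stayed called, with log2 fold changes from -1.02 to -0.87 and adjusted p-values from 3.9e-05 to 0.0085. Neurl1b and Dlk1 also kept their calls. Hey1 kept its direction in all 15 and its call in 11. The number of called members was 2, between 1 and 2 with each sample left out, and 0 of 10 at an absolute log2 fold change above 1 (limma, where 6 had an unadjusted p-value below 0.05). The number of called pathway genes was 2, between 2 and 3 with samples left out, and 6 with sample weights. The total over all genes was 817, and became 1590 with sample weights, 1313 at an adjusted p-value below 0.05, 411 at an absolute log2 fold change above 1 and between 382 and 899 with samples left out, the lowest being without control 3, followed by 414 without iPCKO 2 and 499 without iPCKO 3. With the replicate number as a block, 922 genes were called, and the counts of members and pathway genes stayed at 2 each. The block changed no call of a member.

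The sign turned for values near 0. Hes1 was -0.00028 with quantile normalization, -0.037 with sample weights and between -0.17 and 0.19 with samples left out. Notch2 relative to Pdgfrb was 0.11. The difference in arterial markers was -0.02 as a median over the list, against 0.31 as a mean. With samples left out, that in endothelial markers ran from -0.01 to 0.07, that in fibroblast markers from -0.13 to 0.06, and that in the share of Jag2 from -0.291 to 3.01 percentage points. The cause was not tested. Notch1, Nrarp, Heyl and Hey2 kept their direction and stayed uncalled in all 15 fits. Quantile normalization moved the split of called genes from 495 higher and 322 lower to 456 and 398. RPKM keep no counts, so the counting error of the lowest members, Dll4 and Hey1, could be given only as an approximate number of reads.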
